A study of Homo sapiens with 2 samples.

Results

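The genes described here are the sensors that detect foreign or misplaced DNA and RNA and switch on interferon, together with their adaptors and the kinase and transcription factor they share. The 10 members were chosen by function and by name: CGAS, STING1, RIGI, IFIH1, DHX58, MAVS, TLR3, TBK1, IRF3 and ZBP1, out of 62699 genes with counts. All 10 were found in the table and had counts in both libraries, and 8 of them reached 1 CPM (counts scaled to a common library total) in at least 1 library. CGAS and ZBP1 did not and were left out of every count of genes called.

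RNA sequencing of polyadenylated RNA was carried out on HCC1954, an established HER2-positive breast cancer cell line. There were 2 libraries, 1 with the genotype label ASO-NC and 1 with the label ASO-1235. ASO is the usual short form of antisense oligonucleotide, which the labels do not spell out, and neither a dose, a time nor a sequence of either agent is given there. The sample title of the second library begins with Si in place of ASO, so the kind of agent is named here only as the genotype label has it. The series asks about the long non-coding RNA LINC01235. Each group is 1 library, so nothing checks a difference against replicates, p-values are not given, and every comparison is of these libraries and not of the conditions.

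In cells, double-stranded DNA in the cytosol is bound by cGAS, whose cyclic dinucleotide product activates the membrane adaptor STING. RNA is read by the RIG-I-like receptors RIG-I and MDA5 (the product of IFIH1), which signal through the mitochondrial adaptor MAVS, and by TLR3 in endosomes. STING, MAVS and the TLR3 pathway converge on the kinase TBK1, which phosphorylates the transcription factor IRF3, and several of the sensors are themselves induced by interferon.

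Libraries held 48092494 (ASO-NC) and 37916307 (ASO-1235) counts. LINC01235 had 1337 counts under ASO-NC and 0 under ASO-1235. With a floor of 3 counts in place of the 0, it was 373-fold lower, which is not a lower bound. The interval of its ratio, ASO-1235 over ASO-NC, on counts divided by 2 (described below) reached up to 0.00662. ERBB2, amplified in this line, stood at 4860 and 4628 CPM, and all 8 identity genes of the line (ERBB2, GRB7, EPCAM, CDH1 and 4 keratins) were detected. Of the markers of immune cells 2 of 12 reached 1 CPM, with a summed level of 3.98 CPM in the ASO-NC and 3.38 CPM in the ASO-1235 library. At 0 in both were 5, with CD3D, ITGAX, CLEC4C and NKG7 among them. Fibroblast markers (2 of 8 at 1 CPM) summed to 45.7 and 42.3 CPM, nearly all from COL1A1, with PDGFRB at 0 in both, and endothelial markers (1 of 6, VWF) to 8.78 and 7.89 CPM, with TEK at 0 in both. Of all these markers LYZ (98 and 44 counts) was lower and FAP (28 and 53 counts) higher by the rule for calls given below, though FAP reached 1 CPM solely in the library where it is high. Exons of other genes cover 34.0% of the exonic bases of LYZ and 85.8% of those of CD68, so their counts are uncertain. The part of these markers in the results was not tested.

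The upstream sequence of 2 sensors is shown because it carries the letters of interferon response motifs. The interferon-stimulated response element (GAAA, any 2 bases, GAAA; bound by IRF factors) and the interferon gamma activated site (TTC, any 3 bases, GAA) were searched on both strands in the 250 bases before the RefSeq start. Promoters were in the RefSeq table (GRCh38.p14) for 5 of the 10 members: RIGI, IFIH1, MAVS, TLR3 and TBK1. Of 35116 promoters in that table, 3.02% held the response element and 6.57% the activated site. In these windows the response element was found for IFIH1 and the activated site for TLR3, and neither for the other 3 genes. GENCODE 29 places the start of those further upstream, by 240 bases for TBK1, 128 for RIGI and 35 for MAVS, so by that annotation their windows lie in part inside the gene. The lines below give IFIH1 (chr2:162318685-162318934, minus strand) with the response elements in capitals and TLR3 (chr4:186068906-186069155, plus strand) with the activated sites in capitals, each 5′ to 3′ along the gene.
IFIH1: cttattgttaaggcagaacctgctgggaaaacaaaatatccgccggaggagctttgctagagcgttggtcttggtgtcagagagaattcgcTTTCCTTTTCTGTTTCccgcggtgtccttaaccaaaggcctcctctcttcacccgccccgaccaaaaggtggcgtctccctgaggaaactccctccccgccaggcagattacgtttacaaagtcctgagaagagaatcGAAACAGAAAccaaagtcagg
TLR3: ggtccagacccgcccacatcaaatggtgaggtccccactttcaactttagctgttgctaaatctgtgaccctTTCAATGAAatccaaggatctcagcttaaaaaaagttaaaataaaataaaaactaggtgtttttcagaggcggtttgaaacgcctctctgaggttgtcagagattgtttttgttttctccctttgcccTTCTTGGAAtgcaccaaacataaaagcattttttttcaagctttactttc
In IFIH1, 2 matches on the opposite strand overlap, from 159 to 150 and from 153 to 144 bases before the start, and another lies on the gene's own strand from 21 to 12 bases before it. GENCODE 29 places the IFIH1 start 19 bases further upstream, inside that last match. In TLR3 the matches lie 178 to 170 and 50 to 42 bases before the start. These are matches of letters and not measured binding.

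The levels of the 10 genes fell into an upper and a lower tier in both libraries. Levels of different genes were compared as CPM on TMM-scaled libraries per kb of the longest GENCODE 29 transcript, with exact Poisson 95% intervals on counts divided by 2 (counts were mostly even numbers, as when both mates of a pair are counted). The upper tier held MAVS, IFIH1, TBK1, IRF3 and DHX58, that is, the adaptor MAVS, 2 of the 3 RIG-I-like receptors and the kinase and factor downstream. The lower tier held STING1, RIGI and TLR3, and below them ZBP1 and CGAS. The place of RIGI is uncertain, since overlapping genes in the annotation used for counting could not be checked (described below) and may take its reads. Between the lowest of the upper tier, DHX58, and the highest of the lower, STING1, the level per kb differed 15.5-fold in the ASO-NC and 13.4-fold in the ASO-1235 library. With the median length of a gene's transcripts in place of the longest, the upper 5 lay between 20.5 and 136 CPM per kb and the lower 5 between 0.134 and 2.30, so the tiers did not meet. The order within the tiers changed with that choice: TBK1 then came first in both libraries.

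**Figure D1:**
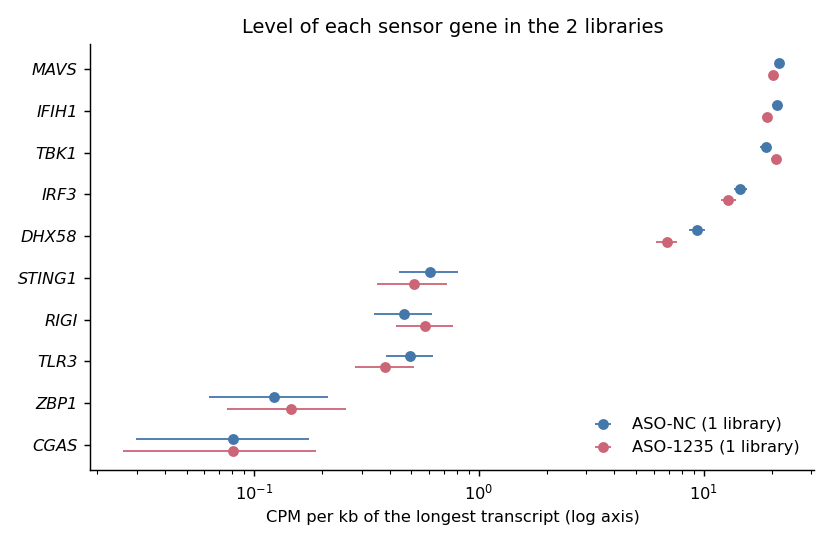
Level of each of the 10 genes (vertical axis) in CPM per kb of the longest transcript (horizontal log axis) in the ASO-NC (blue) and ASO-1235 (red) library, 1 library each, with 95% Poisson intervals on counts divided by 2. MAVS, IFIH1, TBK1, IRF3 and DHX58 lie above 6 CPM per kb in both libraries, and the other 5 genes lie below 1.

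MAVS, the adaptor, had the highest level per kb of the members in the ASO-NC library, at 21.6 (21.0 to 22.1), and stood at 20.4 (19.8 to 21.0) in the ASO-1235 library. IFIH1, the sensor of long double-stranded RNA, was next at 21.1 (20.2 to 22.1) and 19.1 (18.1 to 20.2). TBK1 was at 18.8 (17.9 to 19.8) and 21.0 (19.8 to 22.1). The intervals of MAVS and IFIH1 overlapped in both libraries and those of IFIH1 and TBK1 in the ASO-1235 library, so neighbours among these 3 genes are not separated throughout, and TBK1 came first in the ASO-1235 library. IRF3 followed at 14.5 (13.6 to 15.5) and 12.8 (11.9 to 13.8), and DHX58 at 9.31 (8.56 to 10.1) and 6.85 (6.15 to 7.61), each apart from its neighbours in both libraries. Averaged over both libraries, the level of MAVS per kb lay above 82.8% of the genes tested and that of IFIH1 above 82.0%.

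In the lower tier, STING1 was at 0.602 (0.439 to 0.806) CPM per kb in the ASO-NC and 0.512 (0.350 to 0.723) in the ASO-1235 library. RIGI was at 0.462 (0.340 to 0.615) and 0.577 (0.427 to 0.762), and TLR3 at 0.495 (0.385 to 0.626) and 0.383 (0.279 to 0.513). Neighbours among these 3 overlapped in both libraries. ZBP1, a sensor of left-handed Z-form nucleic acid, was at 0.122 (0.0630 to 0.213) and 0.146 (0.0754 to 0.255), and CGAS at 0.0808 (0.0296 to 0.176) and 0.0805 (0.0261 to 0.188). ZBP1 and CGAS were not separated from each other in either library and lay below TLR3 in both. In a bulk library, few cells with the transcript and little of it in every cell cannot be told apart.

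Between the libraries no member's ratio was past 1.5-fold on TMM scaling, while the intervals of CGAS, ZBP1, STING1, RIGI and TLR3 reached beyond it and TLR3 was past it with the GC and length trend removed. Ratios, ASO-1235 over ASO-NC throughout, were formed with an exact (Clopper-Pearson) 95% interval on counts divided by 2, and a gene was called at 1.5-fold with an interval that excluded 1. None of the 8 members tested was called higher and none lower. Of all 14352 genes tested 7.20% were called (5.20% higher, 2.0% lower), and 0 calls among 8 genes is near that share. In the lowest of 5 equal expression classes 15.0% were called higher and 5.68% lower, against 0.697% and 0.174% in the highest. Of those calls over all genes 72.2% were higher, or 85.1% with scaling by total counts. The ratios of the 8 members ran from 0.736 for DHX58 to 1.25 for RIGI, with 6 below 1 and 2 above. Their median log2 ratio was −0.16, against 0.0009 over all genes tested. With no minimum size, an interval that excludes 1 was seen for 5 of the 8 members (45.9% of all genes): it lay below 1 for 4 members (DHX58, IRF3, IFIH1 and MAVS; 23.0% of all genes) and above 1 for TBK1 alone (22.8% of all genes). Such an interval depends on depth: it excluded 1 for 74.5% of genes in the 5th of 5 equal expression classes, where IFIH1 and MAVS lie, and for 21.2% in the lowest, where STING1, RIGI and TLR3 lie.

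**Figure D2:**
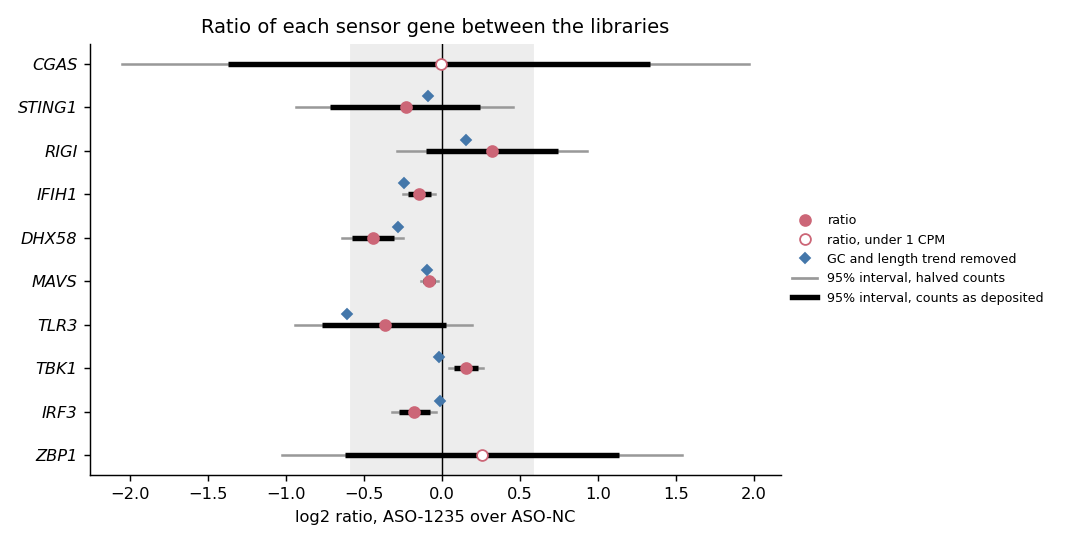
Log2 ratio ASO-1235 over ASO-NC (horizontal axis) of each member (vertical axis), with 95% intervals on counts divided by 2 (grey) and on counts as deposited (black). Open circles mark genes under 1 CPM, blue diamonds the ratio after removal of the trend with GC content and transcript length, and the shaded band 1.5-fold. All 10 ratios lie within the band, and the diamond of TLR3 lies just outside it.

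Among the RIG-I-like receptors DHX58 and IFIH1 had ratios below 1 and RIGI a ratio above 1. DHX58 encodes LGP2, the family member that lacks the signalling domains of the other receptors and modulates them. It lies on chromosome 17 from 42101404 to 42112733, minus strand (GRCh38, GENCODE 29, as for all coordinates of genes below), and had 1138 counts (24.4 CPM) under ASO-NC and 700 counts (17.9 CPM) under ASO-1235. Its ratio of 0.736 (0.642 to 0.842) was the lowest of the members, with 6.46% of genes tested lower still, and with the trend in GC content and transcript length removed it was 0.823 (0.719 to 0.942). IFIH1 (chromosome 2, 162267079 to 162318703, minus strand) had 3548 and 2682 counts, 76.0 and 68.7 CPM. The ratio was 0.904 (0.841 to 0.971), and 0.845 (0.787 to 0.908) without the trend. RIGI, which encodes the sensor of RNA with a 5′ triphosphate, lies on chromosome 9 from 32455705 to 32526324, minus strand. With 94 and 98 counts, 2.01 and 2.51 CPM, it had a ratio above 1, at 1.25 with an interval of 0.818 to 1.90 that includes 1, and without the trend it was at 1.11 (0.730 to 1.70).

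The ratio of 2 genes within a library needs no scaling between libraries, and 7 such pairs were compared without a test. IFIH1 had 3.12 counts per DHX58 count under ASO-NC and 3.83 under ASO-1235, a ratio of ratios of 1.23 (1.05 to 1.43), which was 1.03 (0.880 to 1.20) with the GC and length trend removed. RIGI had 0.0826 counts per DHX58 count under ASO-NC and 0.140 under ASO-1235, a ratio of ratios of 1.69 (1.09 to 2.64), or 1.35 (0.866 to 2.11) without the trend. For RIGI relative to IFIH1 the value was 1.38 (0.899 to 2.12), which includes 1 but excludes it on the counts as deposited (1.02 to 1.86). Relative to the adaptor, RIGI stood at 1.32 (0.865 to 2.02) and IFIH1 at 0.957 (0.882 to 1.04) per MAVS count, the latter at 0.905 (0.834 to 0.982) without the trend. Of the pairs of receptors, none kept an interval apart from 1 once the trend was removed.

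MAVS, the mitochondrial adaptor of RIG-I and MDA5, lies on chromosome 20 from 3846799 to 3876123, plus strand. It had 11805 counts (252.8 CPM) under ASO-NC against 9321 counts (238.7 CPM), the most of any member. Its ratio was 0.944 (0.908 to 0.981), a log2 ratio of −0.08 that became 0.0022 with scaling by total counts. The choice of scaling thus moved the ratio by as much as its distance from 1.

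TLR3, which detects double-stranded RNA in endosomes, lies on chromosome 4 from 186069152 to 186088069, plus strand. It had 139 counts (2.98 CPM) under ASO-NC and 90 counts (2.30 CPM) under ASO-1235, giving 0.774 (0.520 to 1.14) that includes 1. Its longest transcript is 6015 nucleotides long with a GC content of 37.6%, and genes of such composition tended to higher ratios: over 5 equal classes of GC content the median log2 ratio ran from 0.21 in the lowest to −0.19 in the highest. With this trend removed TLR3 stood at 0.655 (0.440 to 0.967) and was called lower, as were 1.45% of all genes tested at that setting (4.60% were called higher, 6.05% either way). No other member was called there.

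The DNA arm had few counts. STING1 (chromosome 5, 139475534 to 139482935, minus strand) had 90 and 64 counts, 1.93 and 1.64 CPM, and a ratio of 0.850 (0.523 to 1.37). CGAS (chromosome 6, 73413515 to 73452276, minus strand) had 12 and 10 counts, 0.257 and 0.256 CPM, and a ratio of 0.996 (0.241 to 3.92). ZBP1 (chromosome 20, 57603846 to 57620576, minus strand) had 24 counts in each library, 0.514 and 0.615 CPM, and a ratio of 1.20 (0.491 to 2.91). Changes within these intervals were not detectable at this depth. For CGAS relative to STING1 the interval likewise spanned 0.258 to 5.05.

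TBK1 and IRF3, the shared end of these pathways, had ratios on opposite sides of 1, which were both just under 1 with the trend removed. TBK1 (chromosome 12, 64451880 to 64502108, plus strand) had 2860 counts (61.2 CPM) under ASO-NC and 2664 counts (68.2 CPM) under ASO-1235, giving 1.11 (1.03 to 1.20), or 0.987 (0.916 to 1.06) without the trend. IRF3 (chromosome 19, 49659569 to 49665875, minus strand) had 1951 and 1442 counts, 41.8 and 36.9 CPM, and a ratio of 0.884 (0.802 to 0.974), or 0.992 (0.899 to 1.09) without the trend. TBK1 had 1.47 counts per IRF3 count under ASO-NC and 1.85 under ASO-1235, a ratio of ratios of 1.26 (1.11 to 1.43), or 0.996 (0.880 to 1.13) without the trend. The transcripts differ in composition, with 39.2% GC in TBK1 and 59.0% in IRF3, and with the trend removed both ratios had intervals that include 1. The cause of the opposite ratios was not tested.

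Reads of overlapping genes limit some of these counts, since no source used here gives the strand setting of the counting. Exons of BCL2L12 on the opposite strand cover 19.3% of the exonic bases of IRF3, and BCL2L12 had 829 and 572 counts. The gene AC135279.3, with 5 and 4 counts, covers 14.7% of TBK1, and DDX43, with 0 counts in both libraries, covers 4.33% of CGAS. No other gene's exon covers the remaining 7 members in GENCODE 29. Of the 62699 genes with counts 58206 are in GENCODE 29, so the annotation used for counting held genes outside it. Its release is unknown here. Overlaps with such genes were not tested, so they are not excluded for any member, which bears on the low count of RIGI.

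**Figure D3:**
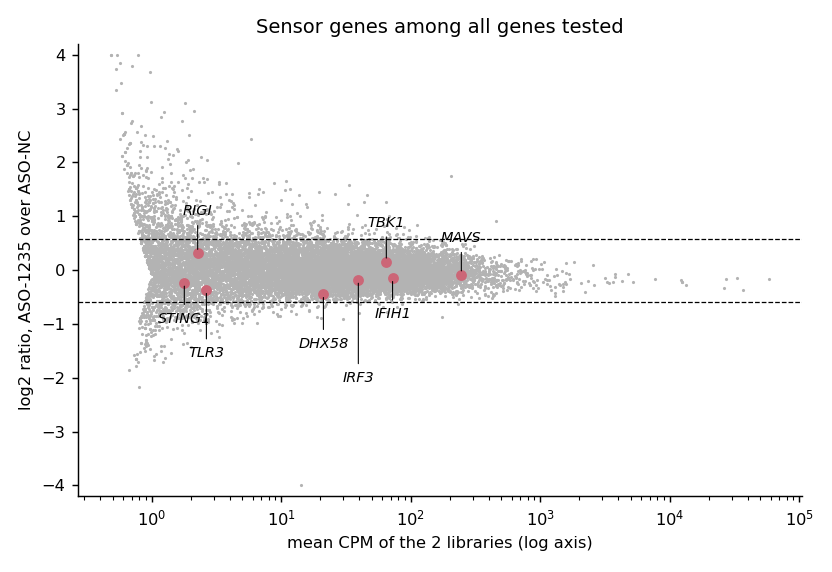
Log2 ratio ASO-1235 over ASO-NC (vertical axis, values beyond 4 drawn at 4) against the mean CPM of the 2 libraries (horizontal log axis) for 14352 genes, with the 8 members tested in red and dashed lines at 1.5-fold. STING1, RIGI and TLR3 lie at the weakly expressed end, where other genes scatter widely, and all 8 lie between the lines.

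Most of the accessory factors listed for the DNA arm reached 1 CPM, although CGAS itself did not. Of 22 such genes, 19 were tested, 0 were called higher and 1 lower, and the median log2 ratio was −0.12. The 3 not tested were IFI16 (2 and 6 counts), RNASEH2A (24 and 6 counts) and TREX1. Exons of THSD8 cover 30.8% of the exonic bases of RNASEH2A. RNASEH2C, a subunit of the nuclease that removes RNA from RNA:DNA hybrids and so limits cGAS ligands, was the gene called. From 1458 and 810 counts it stood at 0.664 (0.587 to 0.751), or 0.730 without the trend, which is no longer past 1.5-fold. Exons of KAT5 cover 28.2% of the exonic bases of RNASEH2C, so its count is uncertain too. TREX1, which encodes a DNA exonuclease acting against the same ligands, was listed at 0 in both libraries. Exons of ATRIP cover 100% of its exonic bases, and ATRIP had 801 and 498 counts, so the 0 of TREX1 does not show absence.

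Other nucleic acid binding proteins of the cytosol and nucleus gave 1 call in 29 tested of 30, with a median log2 ratio of −0.02. POLR3G, a subunit of RNA polymerase III, which can copy AT-rich DNA into a ligand of RIG-I, was higher at 2.15 (1.55 to 3.02), from 116 and 209 counts, and at 1.80 without the trend. The other subunit genes of this polymerase in the list were not called. They ran from 0.840 (0.707 to 0.998) for POLR3K to 1.12 (1.02 to 1.23) for POLR3A. The OAS genes encode enzymes that turn double-stranded RNA into the activator of RNase L, and they had intervals below 1 without reaching 1.5-fold: OAS1 was at 0.697 (0.628 to 0.773), OAS3 at 0.750 (0.708 to 0.794) and OAS2 at 0.793 (0.721 to 0.871). ADAR, which edits double-stranded RNA so that MDA5 does not detect it, was at 0.808 (0.790 to 0.826) from 36780 and 24848 counts. EIF2AK2, which encodes the RNA-activated kinase PKR, was at 1.01 (0.968 to 1.06) and DDX60 at 0.992 (0.926 to 1.06), but at 0.845 and 0.855 without the trend. The 3 OAS genes and ADAR were below 1 with and without the trend.

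Regulators of the RIG-I-like receptors and of MAVS had a median log2 ratio of 0.05, and 1 of 23 tested (of 25) was called higher and 2 lower. CYLD, a deubiquitinase that removes the chains activating RIG-I and TBK1, was at 1.60 (1.43 to 1.78) from 1177 and 1572 counts, or 1.36 without the trend, under 1.5-fold. The lower genes were NLRC5, known as the MHC class I transactivator and also reported to bind RIG-I and MDA5, at 0.583 (0.466 to 0.725), and PCBP1, which promotes turnover of MAVS, at 0.645 (0.522 to 0.794), with 52.2% of its exonic bases covered by PCBP1-AS1. Without the trend NLRC5 was at 0.627 and PCBP1 at 0.712, which is under 1.5-fold. TRIM25, a ubiquitin ligase linked to RIG-I activation, stood at 0.838 (0.785 to 0.894). ITCH, a ligase that targets MAVS, was at 1.38 (1.32 to 1.44) and RNF125, a ligase that targets RIG-I, at 1.48 (1.19 to 1.84), both under 1.5-fold.

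Between adaptors and TBK1, all 23 signalling genes were tested and 0 were called either way, with a median log2 ratio of 0.07. TAX1BP1, an autophagy receptor that restrains MAVS signalling and the most abundant of them, was at 1.36 (1.31 to 1.41) from 10108 and 11468 counts. OPTN, which binds TBK1, was at 1.42 (1.28 to 1.58), and TRAF6 at 1.27 (1.13 to 1.43). Without the trend TAX1BP1 was at 1.35, OPTN at 1.36 and TRAF6 at 1.16 (1.03 to 1.30). The kinase gene IKBKE, the close relative of TBK1, was at 0.809 (0.626 to 1.04), IKBKB at 0.796 (0.715 to 0.886) and IKBKG, which has a near-identical pseudogene and an uncertain count, at 0.697 (0.498 to 0.967). IRF7, the other main factor of interferon induction, stood at 1.14 (0.989 to 1.31). TICAM1, which encodes the TLR3 adaptor TRIF, was at 1.16 (1.03 to 1.30) from 1156 and 1118 counts, or 1.32 (1.17 to 1.48) without the trend.

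Among Toll-like receptors and their partners, 10 of 20 were tested, 1 was called higher and 0 lower, and the median log2 ratio was −0.08. TLR7, TLR9 and TLR10 were at 0 in both libraries, although the gene AC097637.1 covers 86.3% of the exonic bases of TLR9. UNC93B1, the chaperone that carries TLR3 to endosomes, was at 0.752 (0.695 to 0.813) from 3311 and 2083 counts. The gene called was IRAK2, a kinase of the MYD88 branch, at 5.26 (1.94 to 17.8) from 10 and 44 counts. At 0.214 and 1.13 CPM it was tested solely through the library where it is high. Such a filter favours genes that differ in that direction, so the call of IRAK2 carries little weight. MYD88 itself was at 0.779 (0.672 to 0.901). Cell death partners of ZBP1 gave 0 calls in 5 tested of 7, with a median log2 ratio of −0.03. ADAR, given above, was the most abundant of them. RIPK3, the kinase through which ZBP1 drives necroptosis, was at 0 counts in both libraries, and MLKL, its target, had 28 and 29 counts.

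Genes that IRF3 induces directly were compared as a list, which was chosen with earlier results of these data known. Of 12 genes 11 were tested, and 3 were called lower and 0 higher, with a median log2 ratio of −0.15. Of all genes tested 2.0% were called lower and 5.20% higher. The type III interferon genes IFNL3 and IFNL1 had ratios of 0.551 (0.414 to 0.727), from 330 and 152 counts, and 0.635 (0.527 to 0.763), from 678 and 360 counts. Both resemble each other and IFNL2 in sequence, so single counts are uncertain and their calls may not be independent. ISG15, a ubiquitin-like modifier, was at 0.538 (0.466 to 0.622), from 1228 and 553 counts. Without the trend ISG15 stood at 0.627, IFNL3 at 0.637 and IFNL1 at 0.716, the last under 1.5-fold. IFNB1, the classical IRF3 target, had 22 and 24 counts. Over the 11 genes 5 intervals lay below 1, with IFIT1 at 0.690 (0.644 to 0.738) and CCL5 at 0.899 (0.850 to 0.952) beside the 3 called, and 1 lay above, that of OASL at 1.20 (1.09 to 1.32). Of all genes tested 23.0% had an interval below 1 and 22.8% an interval above 1, and such an interval depends on depth. The intervals of IFNL2, IFIT2, IFIT3, CXCL10 and RSAD2 include 1. Matches to the pattern of the response element were found in 7 of the 9 genes of this list with a promoter in the table. IFNL1, IFNL2 and IFNL3 are among the 7. IRF factors bind this element and the list was chosen for induction by IRF3, so the share is no separate result.

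**Figure D4:**
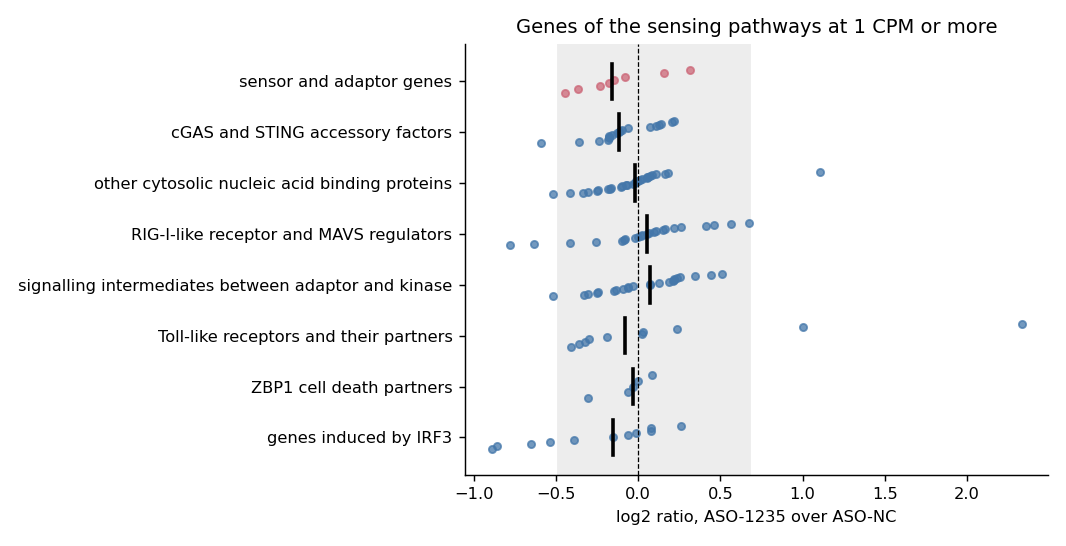
Log2 ratio ASO-1235 over ASO-NC (horizontal axis) of the genes tested in each list (vertical axis), with black bars at list medians, a dashed line at the median of all genes tested and a shaded band from their 5th to 95th percentile (−0.49 to 0.68). All 8 sensor and adaptor genes lie inside the band, whereas 4 of the genes induced by IRF3 lie below it.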

How the data were processed

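The authors deposited 1 table of raw counts per gene for 2 libraries, made with STAR 2.7.11a and featureCounts 2.0.6 on hg38, per the submitters' processing notes. For the annotation, the strand setting and any filter, no source used here gives a value. The table gave 62699 genes, and 3 lines without whole-number counts were left out. Members and lists were chosen with earlier results of these data known.

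Even numbers made up 67.5% (ASO-NC) and 64.0% (ASO-1235) of counts from 1 to 1000, so intervals were computed on counts divided by 2 and cover counting error alone (amplified reads without molecular identifiers do not each stand for a molecule). TMM factors (edgeR 4.0.16, scaling only) were 0.971 and 1.03. Tested genes reached 1 CPM of the library total in at least 1 library. Calls needed 1.5-fold and a 95% interval that excludes 1. Log2 ratios of single genes and list medians used a prior count of 0.5. A floor of 3 counts stood in for a 0, which is 0.0642 CPM in ASO-NC and 0.0768 in ASO-1235. GC content and length of the longest transcript came from GENCODE 29, were known for 97.7% of genes tested, and entered a robust fit on splines of 5 degrees of freedom each (statsmodels 0.14.6). Alternatives were other scalings (DESeq2 1.42.0 among them), minimum counts, sizes of change, intervals and prior counts. Calculations used Python 3.11.15 and scipy 1.17.1. They were tested on simulated counts that were all even and held counting error alone, which cannot show how well the intervals hold for these data.

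Named genes were the members, LINC01235, ERBB2, and up to 3 called genes each way per list, or its most abundant gene where none was called. Any other gene was picked with its values in view. The planned alignment of receptor proteins is not reported here.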

Additional observations from a re-analysis of the deposited data

How the results depend on the processing

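No paired analysis was possible because each group has 1 library, and for the same reason no library could be left out. STING1, RIGI, IFIH1, DHX58, TLR3 and IRF3 kept the direction of their ratio under every scaling, prior count and trend removal that was run, and ZBP1, for which no trend was fitted, under every scaling and prior count. The log2 ratio of CGAS, −0.0049, became 0.00099 with the upper quartile and 0.0765 with total counts, that of MAVS became 0.0022 with total counts, and that of TBK1 became −0.0184 with the GC and length trend removed; the cause was not tested. No member was called at 2-fold, at any minimum count or under any scaling, and with the trend removed 1, TLR3, was called lower. For pairs, trend removal was chosen after the data were seen: the ratio of ratios became 1.03 for IFIH1 over DHX58 and 0.996 for TBK1 over IRF3. With no minimum size of change, an alternative chosen after the data were seen, 1 member was called higher and 4 lower, against 3273 and 3308 of all genes. The 746 genes called higher and 287 called lower became 344 and 71 at 2-fold and 279 and 101 at a minimum of 5 CPM, since fewer genes can pass. With no minimum 1126 were called higher. With total counts 180 were called lower, and the share of calls that were higher moved from 72.2% to 85.1%. Depth limits CGAS, ZBP1, STING1, RIGI and TLR3, each under 150 counts per library.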

Other observations

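Sensors outside the interferon pathway were added as a list of inflammasome and NOD-like genes during the work. Of its 16 genes 7 were tested, none was called either way at 1.5-fold, and the median log2 ratio was −0.11. NOD1, a sensor of bacterial cell wall fragments, was at 0.913 (0.770 to 1.08) from 643 and 491 counts, and NOD2 at 1.32 (0.922 to 1.90) from 122 and 135 counts. CASP4, the caspase that binds lipopolysaccharide, stood at 15.5 and 13.9 CPM. CASP1, the effector of the classical inflammasome, and NLRP6 were at 0 counts in both libraries, and NLRP3 had 4 and 7 counts. IL1B had 14 counts under ASO-NC and 0 under ASO-1235.

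Mitochondrial double-stranded RNA and mitochondrial DNA are ligands of MDA5 and cGAS when they leave the organelle. Of 12 genes that keep or release them, all were tested and none was called, with a median log2 ratio of 0.0025. TFAM, which packages mitochondrial DNA, was at 1.48 (1.37 to 1.61) from 2205 and 2734 counts, or 1.28 without the GC and length trend. PNPT1 and SUPV3L1, which degrade mitochondrial double-stranded RNA, were at 1.14 (1.05 to 1.23) and 1.08 (0.989 to 1.19). The pore gene VDAC1 was at 0.890 (0.858 to 0.922) and the polymerase gene POLG at 0.856 (0.782 to 0.937), while BAX and BAK1 had intervals that include 1.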
